A study of Mus musculus with 3 samples.

Results

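Far cis contacts that recurred in every library were examined in 3 Capture Hi-C (CHi-C) libraries, called Samples 3, 4 and 5. Chromosomes 1 to 19 were divided into regions of 10 kb, and a pair of regions of 1 chromosome was retained when their starts lay at least 100 kb apart and at least 2 di-tags joined them in each of the 3 libraries with duplicates removed. A di-tag is a sequenced pair of fragment ends that had been ligated together. Of 5869510 far cis pairs seen in at least 1 library, 2937 met this rule and are called recurring pairs here. They were chosen by their di-tag counts, so the counts and all that follows from them directly are given as a description with no test.

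All 3 libraries carry the cell type label of mouse embryonic stem cells, strain C57BL/6, with no further treatment or genotype named. Chromatin was fixed with formaldehyde and cut with HindIII, the ends were filled in with biotin and ligated, and selected fragments were captured. For Sample 3 the source label instead reads foetal liver cells, which differs from the study's text, and the lists of di-tags hold no expression value with which the cell type could be checked. The libraries are not stated to come from separate cultures, so any spread between them may be technical.

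Hi-C records which pieces of chromatin lay close enough in the nucleus to be crosslinked and ligated. Contacts within a chromosome become rarer as the distance along it grows, since the chromatin fibre brings near neighbours together most often. In CHi-C the library is enriched for ligation products of chosen fragments with RNA baits, so coverage is concentrated on those fragments, and PCR after the capture can list 1 ligation product many times.

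The libraries differed in depth and in the share of cis di-tags. With duplicates removed they held 9376907, 8596799 and 8821161 di-tags in Samples 3, 4 and 5, of which 4504775, 2798775 and 2508891 were cis. Far cis di-tags numbered 3639991, 1552629 and 1353407. Sample 3 thus stood apart with the most far cis di-tags, while Samples 4 and 5 were similar to each other. By the same rule applied to Samples 4 and 5 alone, 7969 pairs recurred, with a median distance of 150 kb.

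Recurring pairs were a small share of what each library listed more than once. In Sample 3, 166775 far cis pairs had at least 2 di-tags, of which 1.76% were recurring pairs. In Sample 4 there were 70243 such pairs and 4.18% recurred, and in Sample 5 there were 50437 and 5.82% recurred. The same 2937 pairs are counted in each library, so the order of these shares is set by the number of pairs with at least 2 di-tags. The di-tags of recurring pairs numbered 9916, 8980 and 8265 in Samples 3, 4 and 5 (mean 9054 ± 828, SD, n = 3), which was 0.272%, 0.578% and 0.611% of the far cis di-tags.

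Most recurring pairs sat at the threshold. The smallest of the 3 counts was 2 in 2446 pairs (83.3%), 3 in 371 and 4 in 80, and 40 pairs had at least 5 di-tags in every library. Exactly 2 di-tags in each library were found in 484 pairs. Just outside the rule lay 8065 pairs with at least 2 di-tags in 2 libraries and 1 in the remaining library, and a further 11246 pairs had none in the remaining library. A count of 2 has an exact 95% Poisson interval of 0.242 to 7.22, so which of these pairs fell inside the rule was not well determined at this depth. This interval covers counting error only.

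The counts of a recurring pair varied over the libraries within limits that the rule partly sets, since most counts were near its minimum. The largest count was at most 2 times the smallest in 2268 pairs (77.2%), and the median coefficient of variation over the 3 libraries was 24.7%. Sample 3 alone had the highest count in 928 pairs, Sample 4 in 644 and Sample 5 in 426, with a tie in 939. These counts are unscaled, and Sample 3 had the most far cis di-tags (3639991, against 1552629 and 1353407 in Samples 4 and 5). Over the libraries together the median was 8 di-tags per pair and the lowest 6. A single pair reached 262 di-tags, the next 73 and the one after 31.

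Recurring pairs lay near the lower limit of distance. Their median distance was 140 kb, with an interquartile range of 110 to 190 kb, and 90% lay within 260 kb and 99% within 460 kb. The other far cis pairs seen had a median distance of 7510 kb, and the 33201 others that were seen in all 3 libraries had a median of 180 kb. The distance of the recurring pairs was therefore nearer to that of other pairs seen in every library than to that of far cis pairs at large. Of the pairs seen from 100 to 110 kb apart, 466 of 44422 recurred (1.05%), against 485 of 277345 (0.175%) from 200 to 300 kb and 20 of 519171 (0.00385%) from 500 to 1000 kb. The 20 pairs from 500 to 1000 kb had at most 6 di-tags in a library, and the longest of them was 920 kb. None of the 452232 pairs seen from 1000 to 2000 kb recurred.

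**Figure D1:**
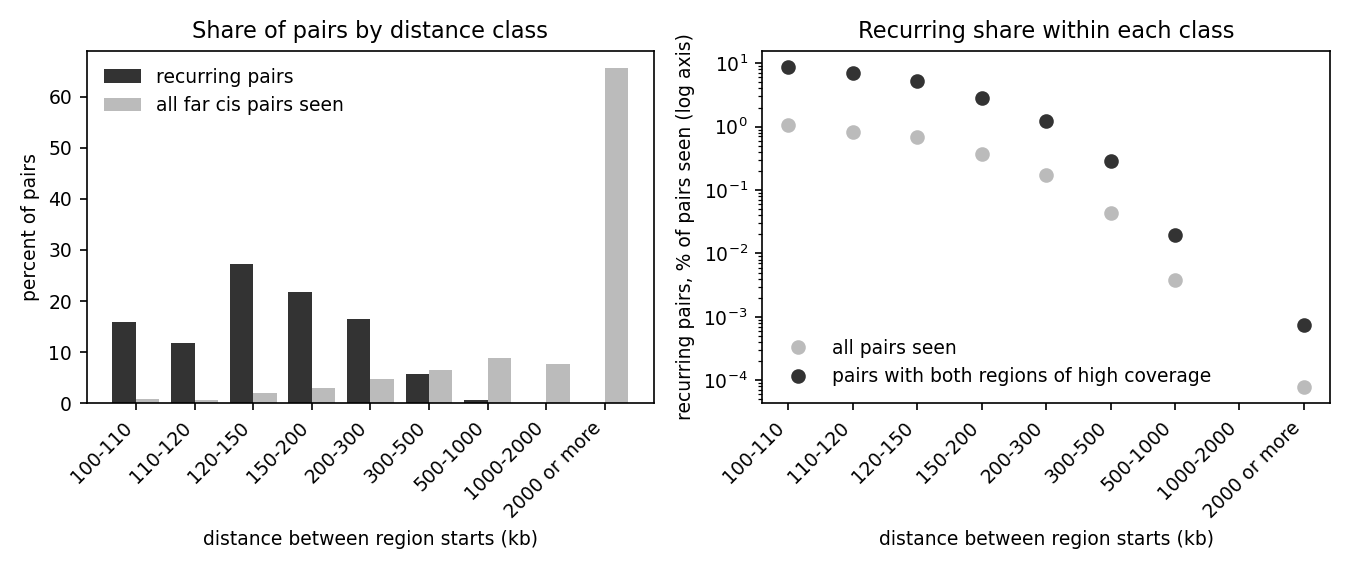
Recurring pairs by distance between region starts (kb, classes of unequal width). Left, the percent of the 2937 recurring pairs (dark bars) and of all 5869510 far cis pairs seen (grey bars) in each class; right, recurring pairs as a percent of the pairs seen in that class on a log axis, for all pairs (grey) and for pairs with both regions of high coverage (dark), with no point where none recurred. The share fell from 1.05% to 0.00385% up to 1000 kb, then was 0 from 1000 to 2000 kb, and 3 pairs stood beyond 2000 kb.

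Only 3 recurring pairs were over 1000 kb apart, at 2210, 2220 and 2380 kb, out of 4301536 pairs seen at such distances. A further 89 pairs over 1000 kb had at least 2 di-tags in exactly 2 libraries. All 3 were also among the 10 pairs with the highest smallest count, the chromosome 11 pair as the one with the most di-tags of 7 pairs tied at a smallest count of 6. The other 7 of these 10 were 110 to 170 kb apart and had 7 to 13 di-tags in each library.

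The pair with the most di-tags joined chromosome 1, 85270000 to 85279999, with 87480000 to 87489999 (mm9). It had 63 di-tags in Sample 3, 81 in Sample 4 and 118 in Sample 5. Both of its regions were among the most covered of the genome by trans ends (ends of di-tags whose other end maps to another chromosome). The first had 834, 727 and 759 trans ends and the second 652, 564 and 587. The adjoining pair, of the same first region with 87490000 to 87499999, had 11, 26 and 36 di-tags. In both pairs Sample 3 was lowest and Sample 5 highest, so their order ran opposite to the order of far cis di-tags in the libraries. It was the order of the trans di-tags, which numbered 4870525, 5797088 and 6311124 with duplicates removed. The trans ends of both regions of the stronger pair did not run in that order, being highest in Sample 3. Those of the neighbour's second region did (192, 227 and 230). What set the order was not tested. These pairs formed a block of 2. The 7 other pairs of regions touching the stronger pair held 4, 3 and 3 di-tags in all, with at most 2 in any one of them.

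The chromosome 11 pair joined 3070000 to 3079999 with 5450000 to 5459999, and had 6, 7 and 15 di-tags. Here too Sample 5 was highest. The 8 pairs of regions that touch it held 2, 1 and 1 di-tags in all. The first region was among the most covered of the genome, with 3659, 3623 and 3656 trans ends, while the second had 37, 58 and 50.

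Among the strong pairs at shorter distance, the pair of chromosome 7, 85920000 to 85929999 with 86030000 to 86039999, had 9, 9 and 8 di-tags in Samples 3, 4 and 5. That of chromosome 5, 35250000 to 35259999 with 35390000 to 35399999, had 10, 7 and 12. On chromosome 15, 102840000 to 102849999 with 103000000 to 103009999 had 7, 13 and 11. In these 3, as in the strongest chromosome 1 pair, the largest count was at most 2 times the smallest. A second pair of chromosome 15, 72900000 to 72909999 with 73010000 to 73019999, had 10, 11 and 7, and on chromosome 4, 151520000 to 151529999 with 151640000 to 151649999 had 8, 7 and 11. The remaining 2 of the 10 were chromosome 11, 120300000 to 120309999 with 120410000 to 120419999 (11, 7 and 8), and chromosome 2, 166420000 to 166429999 with 166590000 to 166599999 (8, 9 and 7). By these unscaled counts no library was highest throughout these 7 pairs. Scaled to the far cis di-tags of each library, of which Sample 3 had the most, Sample 3 was lowest in each of the 7. The choice by smallest count favours pairs with even counts, so the scaling itself tends to place Sample 3 lowest. After this scaling the highest value lay in Sample 4 or in Sample 5, depending on the pair.

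**Figure D2:**
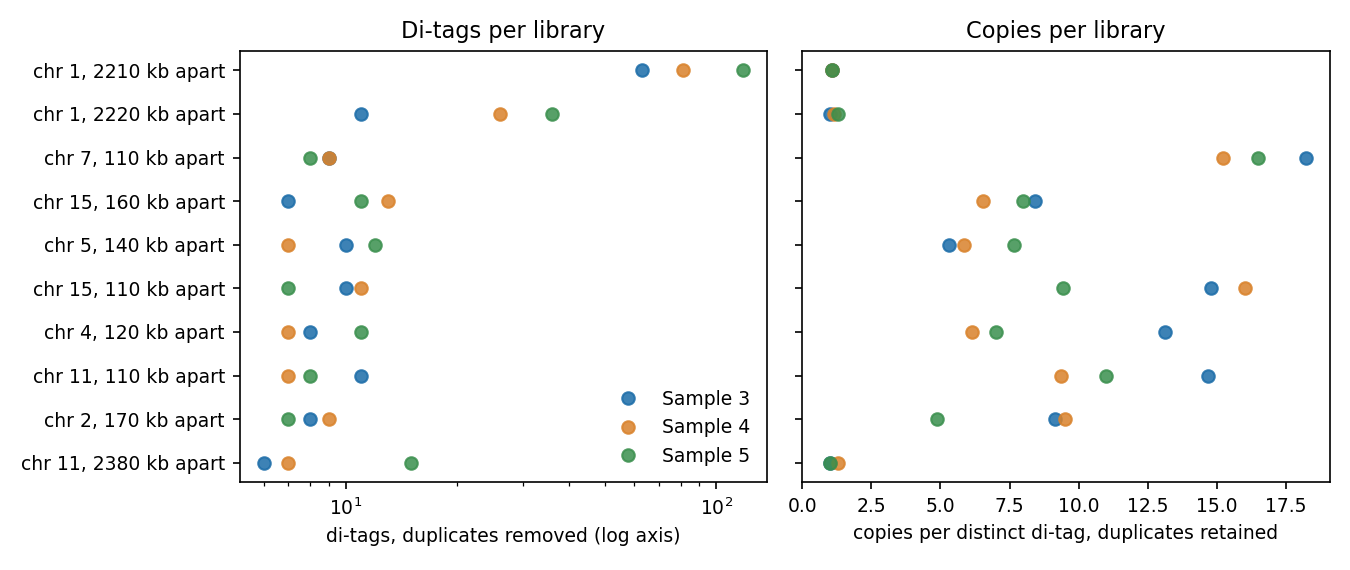
The 10 recurring pairs with the highest smallest count, each labelled by chromosome and distance, with 1 point per library. Left, di-tags with duplicates removed on a log axis; right, copies per distinct di-tag with duplicates retained. The 3 pairs over 2000 kb apart had at most 1.31 copies in every library, and the other 7 had 4.86 to 18.2.

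The far pairs differed from the others in how often each di-tag was copied. Copies were counted where duplicates had been retained, as the listings of each combination of end positions and strands. The strongest pair of chromosome 1 had 1.06, 1.09 and 1.06 copies in Samples 3, 4 and 5, its neighbour 1.00, 1.15 and 1.31, and the chromosome 11 pair 1.00, 1.29 and 1.00. Among the 40 other recurring pairs with at least 20 di-tags the range was 5.05 to 16.7 copies over the libraries together, so the 3 far pairs lay outside it. The other far cis di-tags of the same regions had 1.80 to 4.89 copies. The 20 pairs from 500 to 1000 kb apart had 3.58 to 24.9 copies, and no recurring pair lay between 920 and 2210 kb. Of all 2937 recurring pairs, 18 had fewer than 2 copies, these 3 included.

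**Figure D3:**
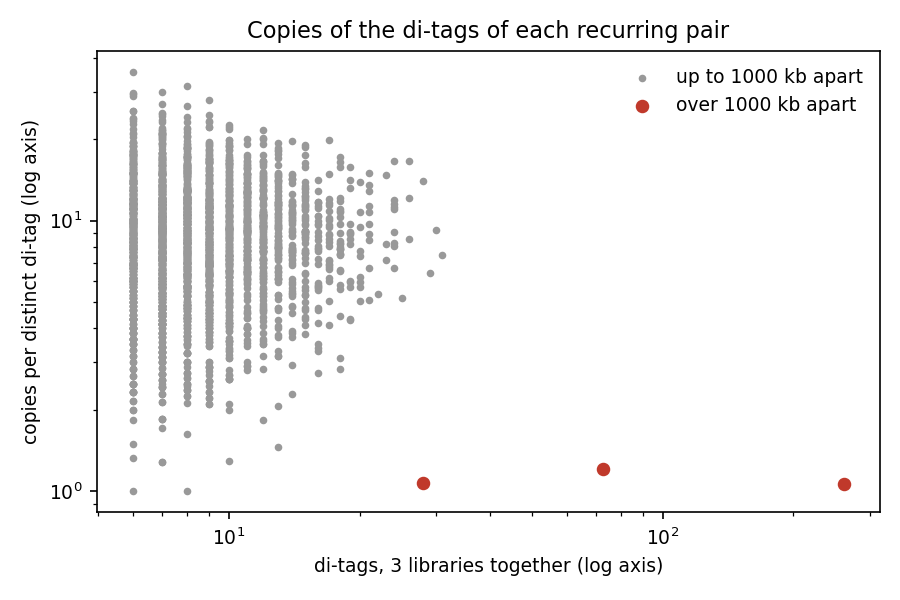
Copies per distinct di-tag against the number of di-tags of each recurring pair, both over the 3 libraries together and on log axes, with 1 point per pair. The 3 pairs over 1000 kb apart (red) lie at 1.07 to 1.21 copies, below all 40 other pairs with at least 20 di-tags (grey).

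End positions repeated within each of the far pairs. The 262 di-tags of the strongest chromosome 1 pair had 166 distinct end positions in the first region and 187 in the second. Within 500 bp from position 85274279, 85274274 and 85274274 lay 76.2%, 69.1% and 72.9% of the first ends in Samples 3, 4 and 5. The densest 500 bp of the second region held 68.3%, 55.6% and 57.6% of its ends. In this pair the densest stretches overlapped between the 3 libraries, while single di-tags were hardly shared: 261 of the 262 were distinct over the libraries. The densest 500 bp of the first region held less in every library in the other far pairs, with 63.6%, 46.2% and 66.7% in the neighbouring pair and 33.3%, 57.1% and 33.3% in the chromosome 11 pair. In the second region it held more in every library, with 72.7%, 76.9% and 83.3% in the neighbouring pair and 100% in the chromosome 11 pair. Ends of some nearer pairs were as concentrated, such as the second end of the chromosome 15 pair at 72900000, with 100% in each library. Both reads lay on the same strand in 84.1%, 79.0% and 73.7% of the di-tags of the strongest pair, against 49.8% to 50.4% over the di-tags of all recurring pairs. In its neighbour the share was 54.5%, 80.8% and 66.7%, and in the chromosome 11 pair it was 50.0%, 28.6% and 26.7%, so the far pairs did not share a direction. In the chromosome 11 pair the 28 second ends had 13 distinct positions, all within 18 bp and all on the plus strand, while the 28 first ends had 26 positions over 5198 bp.

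**Figure D4:**
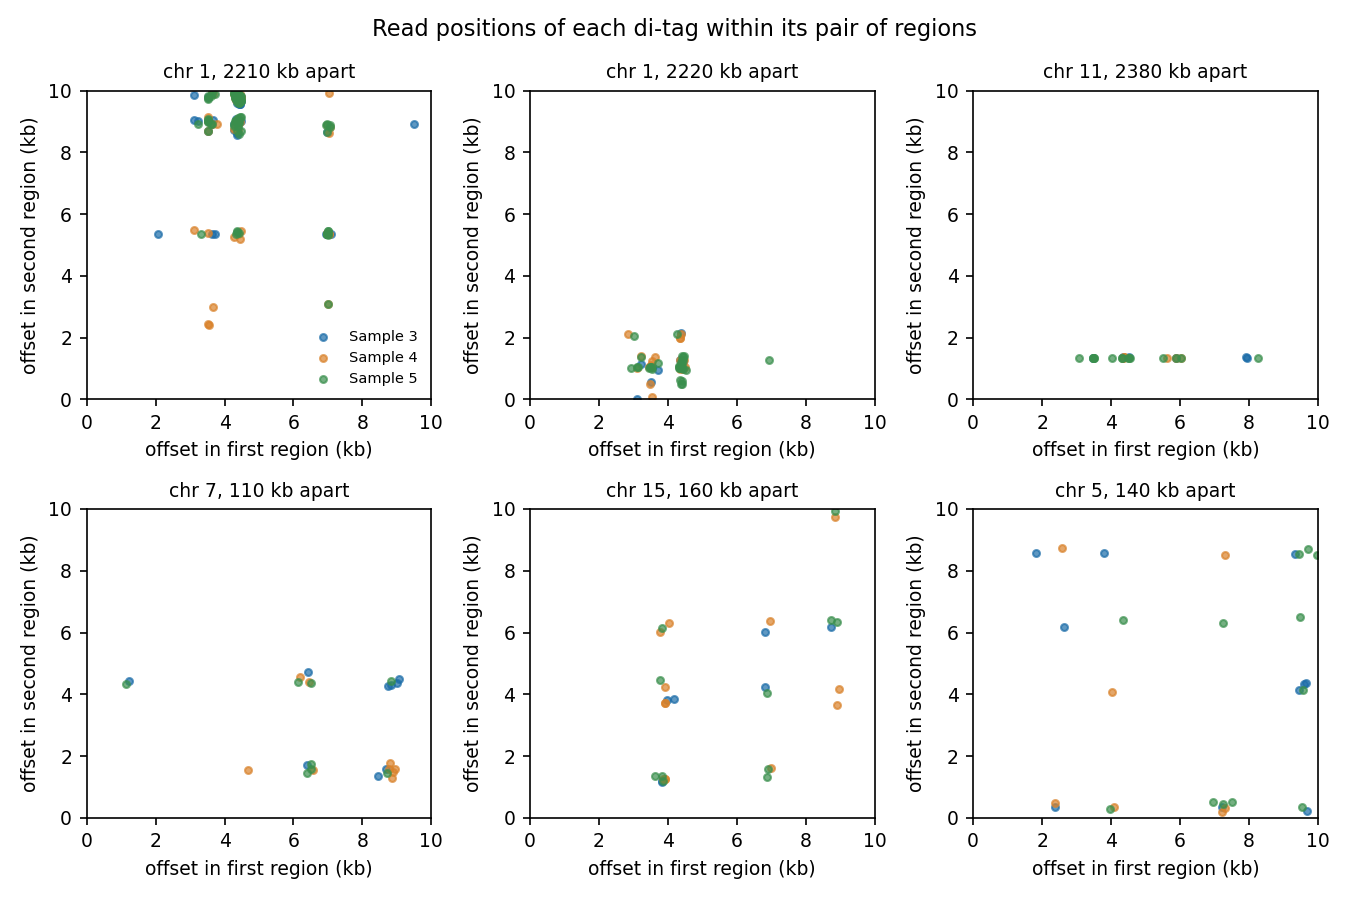
Positions of the 2 reads of every di-tag as offsets (kb) from the start of the first region (horizontal) and of the second (vertical), coloured by library. The top panels show the 3 pairs over 2000 kb apart and the bottom panels the next 3 pairs by smallest count, at 110, 160 and 140 kb. The chromosome 11 pair forms a line 18 bp thick, and in the strongest chromosome 1 pair the densest clusters of the libraries overlap. The densest 500 bp also overlap at the first end of the pair at 160 kb and the second end of that at 140 kb. They overlap at neither end of the pair at 110 kb.

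The full span of the ends varied widely among recurring pairs, and in the strongest chromosome 1 pair it was 7426 and 7578 bp. The di-tags of all recurring pairs had 96.2 distinct end positions per 100 di-tags in the first region and 96.3 in the second, and no position repeated in 1751 pairs (59.6%). Among 10367 other far cis pairs with at least 6 di-tags in all, which had a median of 6 di-tags against 8, no position repeated in 70.2%. The narrower end of a pair spanned a median of 3799 bp in recurring pairs and 3264 bp in these others. The median span of an end was 5552 bp of the 10 kb region. An end confined to 20 bp was found in 1 pair, that of chromosome 11 (0.0340%), and an end within 100 bp in 8 pairs (0.272%). An end within 1000 bp was more common, in 591 pairs (20.1%). Of the 10367 others, 7 (0.0675%) had an end within 20 bp and 44 (0.424%) within 100 bp. Of the 970 recurring pairs with at least 10 di-tags, 36 had all reads of 1 end on 1 strand. No like count was made in the other far cis pairs. Of the 10 strongest pairs, the far chromosome 11 pair was among the 36, with all 28 second reads on the plus strand. Another came close, since the second end of the chromosome 15 pair at 72900000 spanned 348 bp with 27 of 28 reads on the plus strand. Exactly the same di-tag was listed in 2 libraries in very few cases, with 2 shared by Samples 3 and 4, 1 by Samples 3 and 5 and 2 by Samples 4 and 5. Recurrence therefore rested on different di-tags in each library.

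Nearly all recurring pairs had at least 1 well covered region. Coverage was measured by trans ends, which the rule did not count, and a region was called of high coverage when it was in the top 10% in every library (17032 regions). Both regions were of high coverage in 1431 recurring pairs (48.7%), 1 region in 1455 (49.5%) and neither in 51 (1.74%). Of the regions in recurring pairs, 66.3% were of high coverage, against 5.10% (chromosome 1) to 13.6% (chromosome 11) of all covered regions of a chromosome. Among the other far cis pairs seen, both regions were in 7.18%, 1 in 47.4% and neither in 45.4%. Among the others seen in all 3 libraries both were in 27.9%. The share with 1 region of high coverage was thus similar in recurring and other pairs seen. These shares were set side by side with no test, since coverage and the counts of the rule come from the same libraries. Whether coverage decided which pairs met the rule was not tested. The median distance was 140 kb with both or 1 region of high coverage, and 150 kb with neither. In the 51 pairs with neither, the smallest count was at most 3 and the longest distance 440 kb.

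Chromosomes contributed unequally. Chromosome 11 held 399 recurring pairs (13.6%), chromosome 2 held 313, chromosome 8 held 281 and chromosome 7 held 267, and chromosome 18 had the fewest with 27. Per 1000 covered regions this was 35.5 pairs on chromosome 11 and 3.21 on chromosome 18. Over the 19 chromosomes the number of recurring pairs followed the number of high coverage regions (Spearman's rho 0.814, Pearson's r 0.892) more closely than the number of covered regions (rho 0.348, r 0.236). Chromosomes share the libraries and their depth, so these are descriptions. Per 100 high coverage regions the range was narrower, from 5.99 on chromosome 18 to 26.2 on chromosome 11. The fullest window of 5 Mb, chromosome 17 from 25000000 to 29999999, held 67 pairs, and the 10 fullest of 313 windows held 493 pairs (16.8%).

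**Figure D5:**
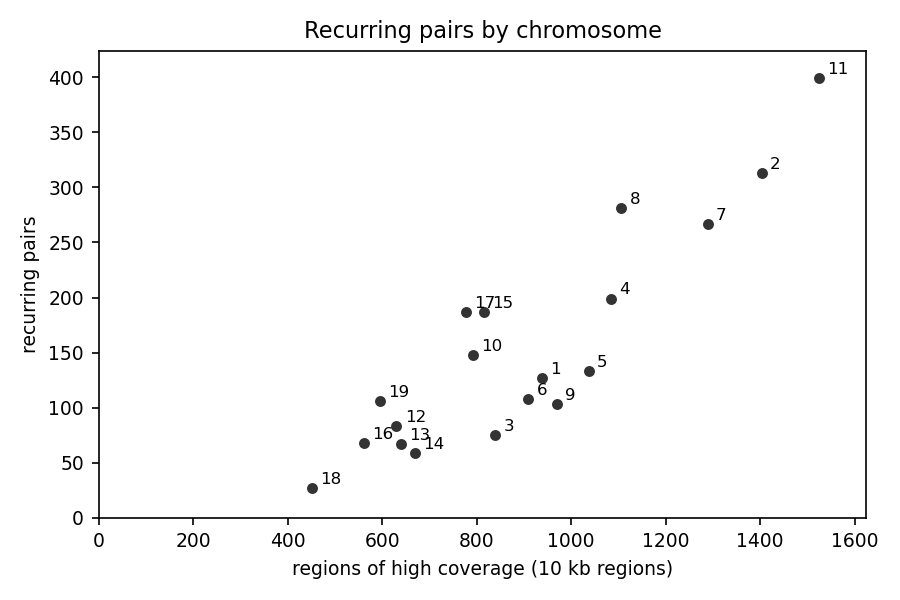
Recurring pairs against regions of high coverage, with 1 numbered point per chromosome. Chromosome 11 is highest on both axes with 399 pairs and 1525 regions, and chromosome 18 is lowest on both with 27 pairs and 451 regions.

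Many recurring pairs shared a region with another, in small hubs. The 2937 pairs used 4259 regions, of which 3292 were in 1 pair, 967 (22.7%) in at least 2 and 64 in at least 5. A region was shared with another recurring pair in 2037 pairs (69.4%). No like share was counted among other far cis pairs, so whether such sharing is particular to recurring pairs was not tested. Linked through shared regions, the pairs fell into 1386 networks, of which 900 were a single pair and the largest had 46. Regions in at least 5 pairs had a median of 1342.5 trans ends over the libraries together, against 437 for regions in 1 pair. Across the 4259 regions, the number of pairs and the trans ends had a Spearman's rho of 0.401.

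The largest hub was chromosome 8, 125140000 to 125149999, in 10 recurring pairs. One partner lay before it and 9 after it, at 110 to 510 kb. Its recurring pairs held 38, 48 and 29 di-tags in Samples 3, 4 and 5, and its trans ends were 321, 469 and 489. This hub was one-sided. A further 5 regions were in 9 pairs each, and the 2 with the most di-tags follow, both one-sided too. The region from 24250000 to 24259999 of chromosome 8 was in 9 pairs, 8 of them before it, at 100 to 240 kb, with 48, 33 and 39 di-tags. The region from 108230000 to 108239999 of that chromosome was also in 9 pairs, 8 of them after it, at 100 to 230 kb, with 49, 34 and 30. Of the other 3 regions in 9 pairs, those of chromosome 10 from 79830000 and of chromosome 4 from 155380000 each had 5 partners before and 4 after, and that of chromosome 11 from 50530000 had 7 before and 2 after. All 3 chromosome 8 hubs ranked above the 99th percentile of trans ends in every library. The smallest count of the recurring pairs of these 3 hubs ran from 2 to 3, 2 to 5 and 2 to 4, in the order named.

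Blocks of adjoining pairs were fewer. A block was a set of recurring pairs in which both regions were the same or next to each other. There were 263 blocks of at least 2 pairs, and these held 601 recurring pairs (20.5%). This share depended on the region size, at 6.54% with regions of 5 kb and 52.6% with 20 kb. Blocks were not formed among other far cis pairs, so no like share stands beside it. Of the 263 blocks, 52 had at least 3 pairs, and the largest had 7. It joined chromosome 5, 35250000 to 35279999, with 35370000 to 35409999, and held 43, 39 and 37 di-tags in Samples 3, 4 and 5. A block of 6 joined chromosome 11, 102160000 to 102189999, with 102280000 to 102309999, and held 47, 24 and 16. Another of 6 joined chromosome 17, 35140000 to 35169999, with 35240000 to 35279999, and held 20, 31 and 23. By these counts the first block was even over the libraries, the second was highest in Sample 3 and the third in Sample 4. The counts are not scaled to the far cis di-tags, of which Sample 3 had the most. Their pairs lay 100 to 150 kb apart and had 3.15 to 18.6 copies per distinct di-tag, unlike the chromosome 1 block.

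Over all their di-tags, recurring pairs were copied slightly more than other pairs. Mean copies per distinct di-tag were 10.1, 9.01 and 7.96 in Samples 3, 4 and 5, against 9.23, 8.02 and 7.35 in the other far cis pairs with at least 2 di-tags. The ratio was above 1 in 3 of 3 libraries (1.092, 1.124 and 1.082), with a mean log2 ratio of 0.14 ± 0.029 (SD, n = 3). An exact two-sided sign-flip test gave p = 0.25, the smallest that 3 libraries allow. Between pairs up to 200 kb apart with both regions of high coverage, the ratio was 0.987, 1.00 and 0.953. With 1 region of high coverage it was 1.05, 1.04 and 1.03, and with neither 1.48, 1.53 and 1.53. The ratio was thus highest in every library where neither region was well covered. Yet up to 200 kb the recurring pairs of that class were the least copied, with 9.52, 8.47 and 7.71 copies. With both regions of high coverage they had 10.2, 9.37 and 8.12. The other pairs with neither region of high coverage had 6.45, 5.54 and 5.04 copies, so the high ratio came with a low comparator. At any distance only 51 recurring pairs had neither region of high coverage. The mean ratio of 1.099 turned to 0.982 when pairs were chosen by counts with duplicates retained. That choice, of recurring and other pairs alike, counts the copies being compared, so it is no separate check. The ratio turned to 0.862 when only di-tags on the plus strand at both ends were used, which left 53 recurring pairs. Of these di-tags the strongest chromosome 1 pair alone held 45, 47 and 67 in Samples 3, 4 and 5. Over all strands its di-tags had 1.06, 1.09 and 1.06 copies. Its part in the value was not tested. With all di-tags but without the 3 pairs over 1000 kb, the mean ratio was 1.11.

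Strand gave no difference beyond the spread between libraries. Both reads lay on the same strand in 49.8%, 50.4% and 50.1% of the distinct di-tags of recurring pairs, and in 49.9%, 49.9% and 50.1% of those of other pairs with at least 2 di-tags. The mean difference was 0.11 percentage points ± 0.35 (SD, n = 3; exact two-sided sign-flip p = 1). Without the 3 pairs over 1000 kb the share in recurring pairs was 49.6%, 50.0% and 49.7%, and its mean of 49.8% lay below the 50.0% of the other pairs, so the direction of the difference turned.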

How the data were processed

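The authors deposited, for each library, lists of di-tags with duplicates retained and removed, each line giving chromosome, position and strand of both reads. They had truncated reads at the ligation junction, mapped them and filtered artefacts with HiCUP. The submitters' processing notes name Bowtie 1.1.0 and the build mm9. No mm9 gene annotation was used here, so no gene is named.

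The members and all lists were chosen with earlier results of these data known. Di-tags were counted between 10 kb regions, so restriction fragments were not resolved. For minus-strand reads it was not tested whether the listed position is the first or the last base. Copies came from the lists with duplicates retained. Pairs to be named were the 10 with the highest smallest count, the 3 longest, the 3 largest blocks and the 3 largest hubs, with ties broken by the number of di-tags and then by position. Python 3.11.15, numpy 2.4.6, pandas 2.3.3 and scipy 1.17.1 were used, and the procedures were tested on simulated data. Alternatives changed region size, shift, distance, count, near-duplicates, depth, duplicates, strand, coverage, adjacency, comparator and libraries. The restriction to pairs up to 1000 kb was added after seeing the data.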

Additional observations from a re-analysis of the deposited data

Results flagged for a closer look

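Di-tags outside chromosomes 1 to 19 in cis were examined by the same counts, and pairs with at least 2 di-tags in every library were found in both places. On the X chromosome 6 cis pairs met the rule, with a median distance of 145 kb, a longest distance of 310 kb and a smallest count of 2 in each. None of them had more than 3 di-tags in a library, and their share of the X pairs seen is not given.

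Between chromosomes, 11 of the trans pairs of regions had at least 2 di-tags in every library, of 16895580 seen, and 5 of these had a smallest count of 2. In 9 of the 11, one region lay within 50 kb of the first region of the far chromosome 11 pair. The strongest joined chromosome 5, 33070000, with chromosome 11, 3030000, with 41, 38 and 36 di-tags in Samples 3, 4 and 5 and 1.27, 1.11 and 1.03 copies per distinct di-tag. Chromosome 11, 3030000, with chromosome 17, 3070000, had 28, 16 and 20 di-tags, and chromosome 11, 3020000, with the same region had 15, 21 and 20. Copies over the 11 pairs ran from 1.04 to 5.76. What these pairs share with the far cis pairs was not tested.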

How the results depend on the processing

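Shifting the regions by 5 kb, counting di-tags within 10 bp of each other as 1, thinning the libraries to the same number of di-tags and leaving out the pairs over 1000 kb (an alternative added after seeing the data) left the number of recurring pairs between 2632 and 2934 and the median distance at 140 kb. The thinning matched the libraries in all di-tags, not in far cis di-tags, so the excess of far cis di-tags in Sample 3 remained. With regions of 5 kb there were 520 pairs (median 130 kb, both regions of high coverage in 57.7%, in blocks 6.54%, copy ratio 1.06, same strand 52.1%), and with 20 kb 15111 (160 kb, 33.9%, 52.6%, 1.14). Requiring 3 di-tags gave 491 pairs (130 kb, 58.5%, 16.1%, 1.06, same strand 50.7%). Starts at least 50 kb apart gave 7895 (80 kb, 46.2%, 31.6%), and at least 200 kb gave 679 (250 kb, in blocks 11.2%, copy ratio 1.076, same strand 51.9%). Counting with duplicates retained gave 23557 (170 kb, 33.5%, 28.3%) with the copy ratio turned to 0.982. Only plus-strand di-tags gave 53 (120 kb, 62.3%, 3.77%) with the ratio turned to 0.862. In the first of these turns the pairs were chosen by the copies that the ratio compares, so it is no separate check. In the second the strongest chromosome 1 pair alone held 45, 47 and 67 of the di-tags in Samples 3, 4 and 5. The cause of these turns was not tested.

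With the rule applied to any 2 libraries, 7969 (without Sample 3) to 11731 pairs (without Sample 5) recurred, with medians of 150 to 160 kb, 40.3% to 43.3% with both regions of high coverage, 21.3% to 26.2% in blocks and copy ratios of 1.099 to 1.123. High coverage as the top 5% gave 28.4%, and from all ends 56.3%. Adjoining within 2 regions gave 35.2% in blocks. The copy ratio was 1.43 against all other far cis pairs and 1.21 by medians. The same-strand percent was 50.6% with shifted regions and 49.8% without the pairs over 1000 kb. Most pairs rest on 2 or 3 di-tags per library, which limits all counts. Recurring and other pairs were compared within each library, and with 1 group of libraries there was no replicate block to add.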
